A study of Homo sapiens with 12 samples.

Results

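Transcripts of 9 secreted proteins, GDF15, CSF1, TGFA, THBS1, IGFBP3, PLAU, VEGFA, LIF and HBEGF, were measured by RNA-seq in 12 libraries of 2 human cancer cell lines. The genes were taken by symbol from a table that held 36486 rows once rows of the same symbol were summed, and each symbol had 1 row. TOV-112D is an ovarian cancer line whose own p53 carries the R175H substitution, a structural mutation that removes sequence-specific DNA binding. Its cells received DMSO, UCI-1001 or UCI-1014 for 3 h, with 2 libraries each, and DMSO was the vehicle of both compounds. Saos-2 is an osteosarcoma line without functional p53. Parental cells (p53-null) and cells carrying a doxycycline-inducible wild-type p53 delivered by lentivirus (p53-WT) had 3 libraries each, all labelled with 16 h of induction. The dose of UCI-1014 in the RNA-seq was not given in the sources used here, so the doses of the compounds are not known to match. Line, duration and agent all differ between the TOV-112D and the Saos-2 series, and TOV-112D cells already contain a mutant p53 that Saos-2 cells lack. The labels do not say whether libraries of a group came from separate cultures, so p-values measure the spread between these libraries, which may be technical.

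p53 is a tetrameric transcription factor that binds paired decamers and raises the transcription of genes for cell cycle arrest, repair and death, and some of its targets encode secreted proteins that act on neighbouring cells. The 9 factors also answer other stress programmes. HBEGF and TGFA are membrane-anchored ligands of the EGF receptor that are shed by metalloproteases. VEGFA drives the growth of blood vessels, and THBS1 (thrombospondin 1) is an extracellular glycoprotein known to restrain it. GDF15 is a divergent TGF-β family cytokine that signals through GFRAL and RET, CSF1 supports macrophages, and LIF is an IL-6 family cytokine that signals through LIFR and IL6ST. IGFBP3 binds insulin-like growth factors in serum and tissue, and PLAU (urokinase) is the protease that converts plasminogen into plasmin.

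The libraries held 17762027 to 20717898 counts in TOV-112D and 19593655 to 24629558 in Saos-2. CDKN1A, the cell cycle inhibitor p21 and a p53 target, was used to check the labels. It had 1200 to 1718 counts in p53-null and 159121 to 204034 in p53-WT libraries. In both Saos-2 groups replicate 1 stood apart from replicates 2 and 3. Pairwise chi-square values divided by their degrees of freedom reached 24.7 in p53-null and 38.4 in p53-WT, and 2.08 to 3.73 in the TOV-112D groups. The marker check went partly against the label of the osteosarcoma line. The osteoblast genes SP7, ALPL and IBSP lay at or below 0.281 TPM, a share of all transcripts corrected for length, in all 6 libraries labelled Saos-2, while the epithelial keratin KRT18 was at 382 to 585 TPM. In TOV-112D, KRT18 and KRT8 were at or below 0.997 TPM. No identity is assigned here, and every statement on Saos-2 refers to the libraries so labelled.

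RefSeq promoters (GRCh38.p14) matched 6 of the 9 genes, with 8 start sites in all, and the genes CSF1, LIF and VEGFA were not matched. The 250 bases before the start site are shown for GDF15, which was higher in p53-WT cells and with UCI-1014, and for THBS1 and HBEGF, which passed the test with both compounds. Capitals mark the GC box (GGGCGG, either strand) and the TATA box (TATAA). The GDF15 stretch is chr19:18385908-18386157 on the plus strand, inside the gene model at chr19:18374731-18389176. The THBS1 stretch is chr15:39580829-39581078 on the plus strand, directly before the gene model at chr15:39581079-39599466. The HBEGF stretch is chr5:140346604-140346853 on the minus strand, before the gene model at chr5:140332843-140346603.
GDF15: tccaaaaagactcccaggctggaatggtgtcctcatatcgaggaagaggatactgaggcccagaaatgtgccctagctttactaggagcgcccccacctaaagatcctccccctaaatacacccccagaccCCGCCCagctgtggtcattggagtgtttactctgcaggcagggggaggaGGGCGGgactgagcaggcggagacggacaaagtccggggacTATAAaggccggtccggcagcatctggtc
THBS1: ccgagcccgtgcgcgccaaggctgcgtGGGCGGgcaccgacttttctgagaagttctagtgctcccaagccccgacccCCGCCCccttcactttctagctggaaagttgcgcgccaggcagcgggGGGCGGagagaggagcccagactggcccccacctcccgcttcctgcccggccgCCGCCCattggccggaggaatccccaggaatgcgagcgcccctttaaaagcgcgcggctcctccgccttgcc
HBEGF: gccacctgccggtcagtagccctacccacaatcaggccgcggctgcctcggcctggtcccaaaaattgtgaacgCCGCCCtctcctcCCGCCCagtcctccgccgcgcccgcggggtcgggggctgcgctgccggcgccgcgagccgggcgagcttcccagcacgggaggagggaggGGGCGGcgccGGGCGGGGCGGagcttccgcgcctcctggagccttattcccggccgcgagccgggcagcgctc

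Of the 3, GDF15 alone held a TATA box, 29 bases before its start site, where 20.4% of 35116 human promoters of 300 bases held one on either strand. A GC box was found in 6 of the 8 member promoters and in 45% of all promoters. The searches for AP-1 (TGANTCA, in 7.7% of all promoters), the heat shock element core (GAANNTTC, 6.8%), the CArG box (1.3%) and the p53 half-site (6.6%) gave no match in the 8 windows, which says only that these letters are absent there. TGACG, the core of the cAMP response element, occurred in 1 of the 8, a TGFA promoter, and in 24.6% of all promoters.

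The level of the 9 transcripts relative to each other was read in TPM. VEGFA led in TOV-112D, at 29.0 TPM ± 4.54 (SD, n = 2) with DMSO and 63.2 TPM ± 6.13 (n = 2) with UCI-1014. The other 8 factors were at most at 2.68 TPM in DMSO cells, and TGFA was the lowest at 0.270 TPM ± 0.354. In p53-null Saos-2 cells PLAU led at 143 TPM ± 8.47 (n = 3), followed by HBEGF, IGFBP3 and THBS1 between 17.6 and 10.9 TPM, and CSF1 was the lowest at 0.462 TPM ± 0.062. In p53-WT cells GDF15 led at 251 TPM ± 4.35 and PLAU was at 188 TPM ± 5.52, an order that turns without correction for length, at 214 CPM (counts scaled to library size) for GDF15 and 321 CPM for PLAU. At the other end, VEGFA was the lowest of the 9 at 5.97 TPM ± 2.10. Neighbours in the middle of the p53-WT order, THBS1 at 15.7 TPM ± 2.21, HBEGF at 14.4 TPM ± 1.47 and TGFA at 14.1 TPM ± 0.462, did not differ beyond their spread.

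**Figure D1:**
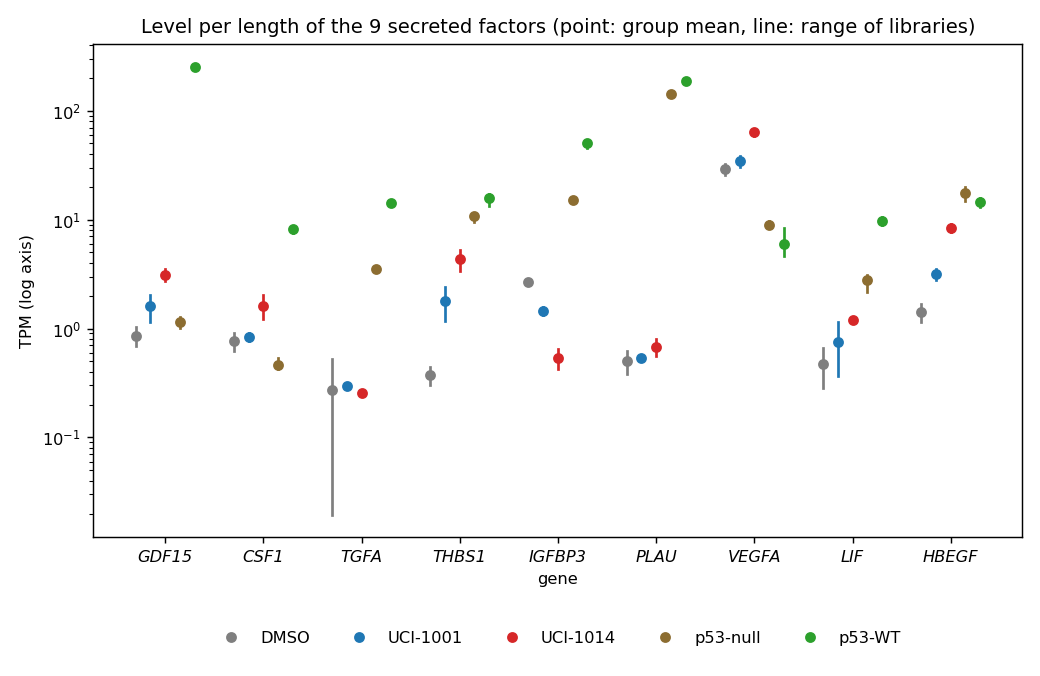
Level of each secreted factor in TPM on a log axis, by group, with the group mean as a point and the range of its libraries as a line (2 libraries a group in TOV-112D, 3 in Saos-2). VEGFA is the highest of the 9 in the 3 TOV-112D groups, and GDF15 moves from 1.15 TPM in p53-null to 251 TPM in p53-WT cells. TPM of IGFBP3 in TOV-112D omits a varying part of its counts, as described with its transcripts.

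Both lines also differed before any compound or wild-type p53. In a fit over all 12 libraries, 7 of the 9 factors were lower in DMSO-treated TOV-112D than in p53-null Saos-2 cells and 1 was higher, where 37.2% of all genes tested were lower and 37.4% higher. PLAU showed the widest gap, a log2 difference of -8.29 (SE 0.27, adjusted p = 1.29e-13), and THBS1 differed by -5.41 (SE 0.27). TGFA differed by -6.29, a value that rests on 5 counts in the DMSO libraries and was -5.60 and -7.55 without DMSO replicate 1 and 2. VEGFA was 3.15-fold higher in TOV-112D (log2 1.65, SE 0.11, adjusted p = 6.67e-09). CSF1 did not pass the test (log2 0.34, SE 0.21, adjusted p = 0.218). Cell line, medium, vehicle and induction cannot be told apart in this comparison, and fewer expressing cells cannot be told apart from less RNA per cell in any bulk sample.

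p53-WT was compared with p53-null to ask which factors move when wild-type p53 is present. Of the 9 factors, 7 were higher and 1 was lower at an adjusted p below 0.05 in edgeR's quasi-likelihood test, where 33.5% of the 14275 genes tested were higher and 33% lower. The median log2 fold change was 1.96 for the 9 factors and -0.01 for all genes. The 9 factors were chosen with earlier results of these data known, so contrasts with all genes are not independent of them. With UCI-1001, 3 of the 9 were higher than with DMSO and 0 lower, where 9.39% of 14177 genes were higher and 6.36% lower. With UCI-1014, 7 of the 9 were higher than with DMSO and 0 lower, where 23.7% of genes were higher and 23.4% lower. Lower factors also numbered 0 for either compound in edgeR at an unadjusted p below 0.05 and in DESeq2, and with limma on TPM there were 0 for UCI-1001 and 1 for UCI-1014, which was IGFBP3. GDF15 and TGFA entered the TOV-112D tests only through compound-treated libraries, because they lay under the filter of 0.524 CPM in both DMSO libraries, so the counts are also given without them. Of the 7 factors above the filter in all 6 libraries, 3 were higher with UCI-1001 and 5 with UCI-1014.

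**Figure D2:**
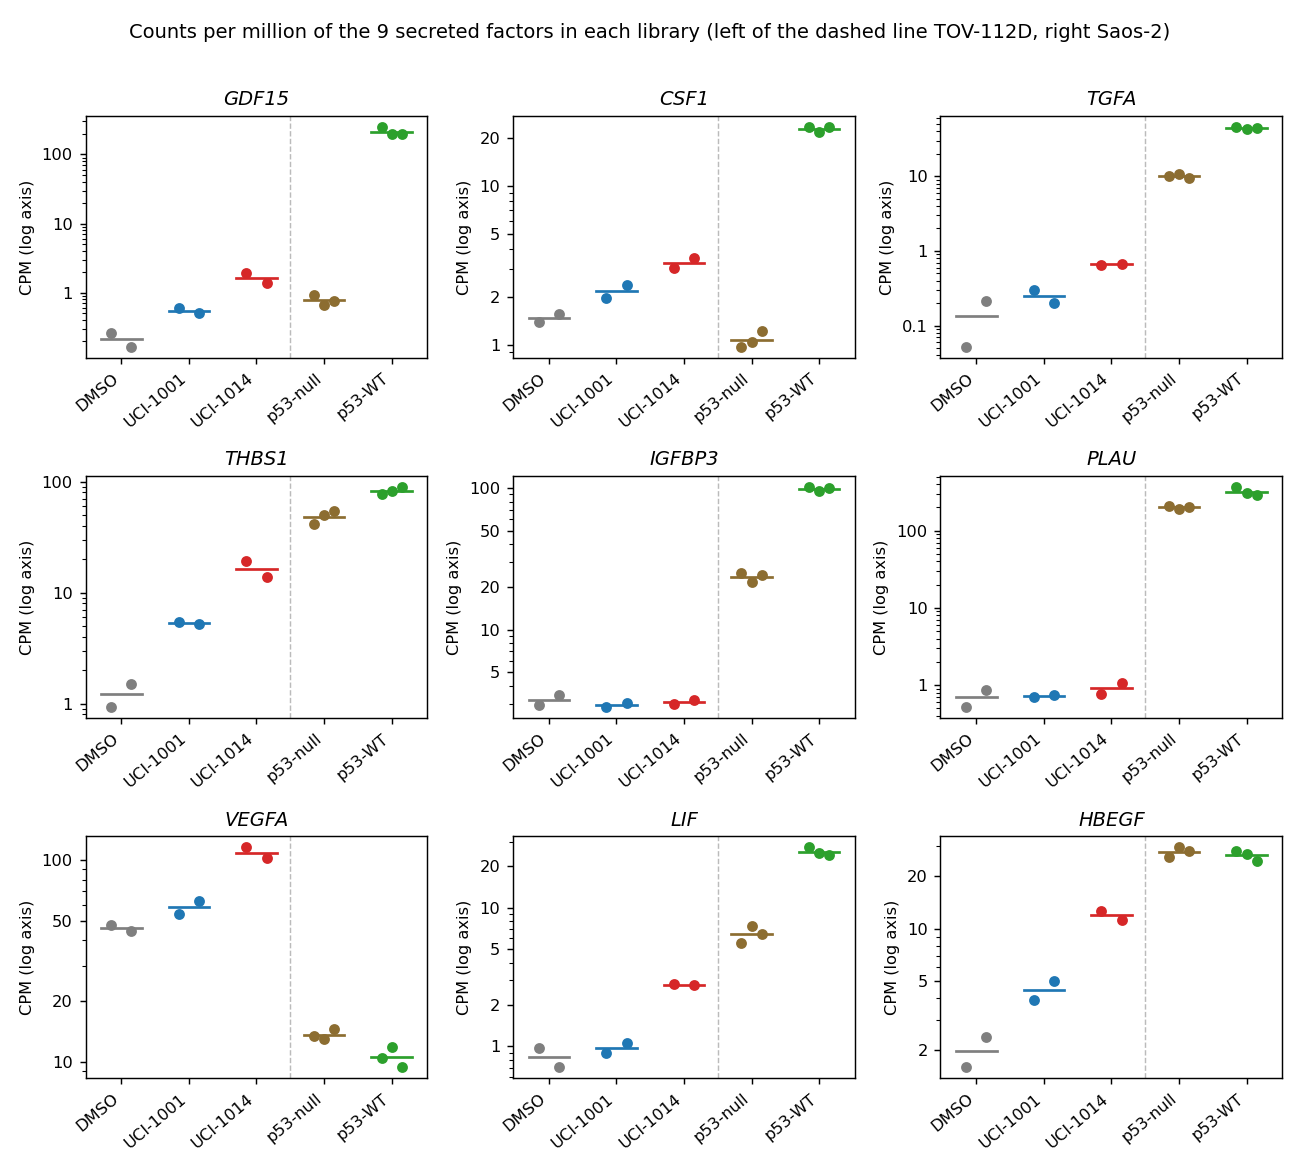
CPM of the 9 factors in each library on log axes, 1 point a library, with the group mean as a bar. The DMSO, UCI-1001 and UCI-1014 points of THBS1, HBEGF and VEGFA lie in 3 separate steps, those of PLAU and IGFBP3 overlap between DMSO and both compounds, and GDF15 is near 1 CPM or below outside the UCI-1014 and p53-WT groups.

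**Figure D3:**
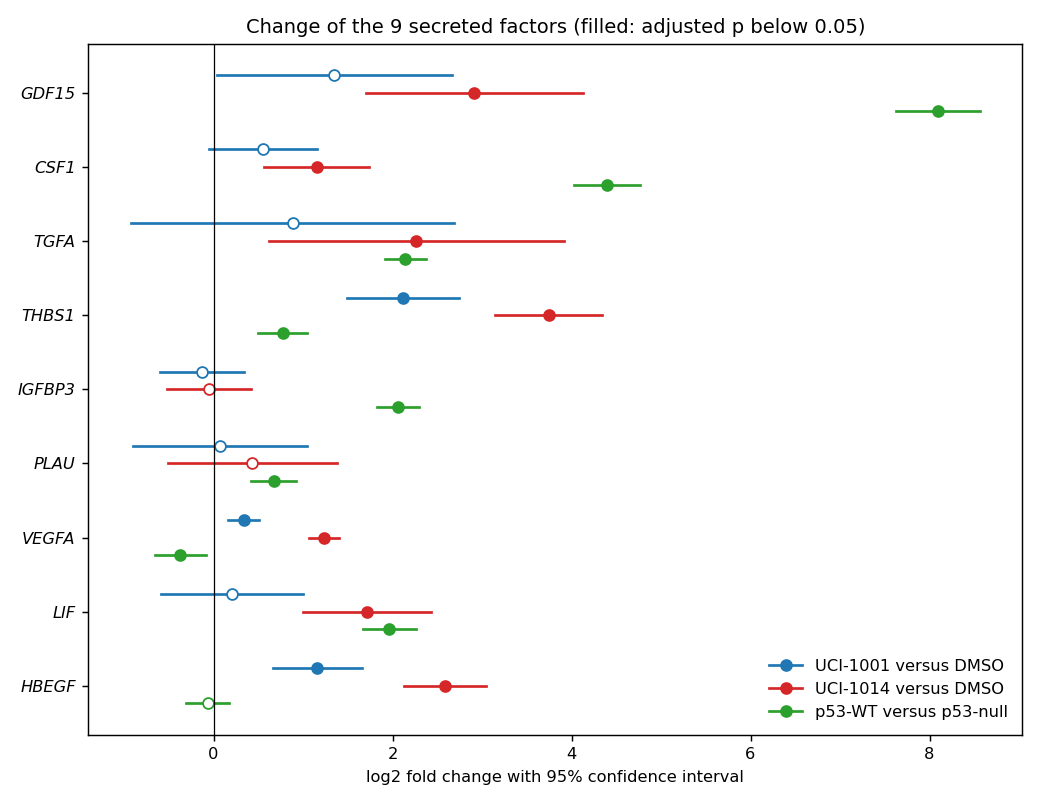
Log2 fold change of each factor in 3 comparisons, with 95% confidence intervals as lines and filled points where the adjusted p was below 0.05. THBS1 and HBEGF lie further right with UCI-1014 than with p53-WT, GDF15 and CSF1 the reverse, and VEGFA lies on opposite sides of 0.

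Among the EGF receptor ligands, HBEGF passed the test with both compounds, and TGFA with p53-WT and, on few counts, with UCI-1014. HBEGF was at 1.60 and 2.38 CPM in the DMSO libraries, at 3.91 and 4.98 CPM after UCI-1001 and at 12.7 and 11.2 CPM after UCI-1014. The 3 groups did not overlap. HBEGF rose 2.24-fold with UCI-1001 (log2 1.16, SE 0.23, adjusted p = 0.00262) and 6.01-fold with UCI-1014 (log2 2.59, SE 0.22, adjusted p = 8.17e-08). The UCI-1001 call was lost without DMSO replicate 1 (log2 0.89, adjusted p = 0.0557) and with limma on TPM (log2 1.13, adjusted p = 0.0867). In Saos-2 HBEGF was at 25.7, 29.4 and 28.0 CPM in p53-null and 27.9, 26.9 and 24.7 CPM in p53-WT libraries, and these groups overlapped. Its log2 fold change with p53-WT was -0.06 (95% confidence interval -0.30 to 0.18, adjusted p = 0.625).

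TGFA was barely sampled in TOV-112D, with 1 and 4 counts in the DMSO libraries, 6 and 4 with UCI-1001 and 11 and 13 with UCI-1014. It was tested only because both UCI-1014 libraries passed the filter, so its call there had to favour a rise. Its log2 fold change with UCI-1014 was 2.27 (SE 0.77, adjusted p = 0.0126), and the ratio of the summed counts was 5.01 with a counting interval of 1.87 to 16.8. The call depended on single libraries. Without DMSO replicate 1 the log2 value was 1.59 with an adjusted p of 0.146, without DMSO replicate 2 it was 3.52, and without UCI-1014 replicate 1 or 2 the adjusted p was 0.0584 or 0.0646. DESeq2 gave an adjusted p of 0.0888. With UCI-1001 the value was 0.88 with a confidence interval of -0.92 to 2.69, so a change of TGFA was not detectable at this depth. In Saos-2 the sampling was ample. TGFA rose 4.42-fold with p53-WT, from 10.1 CPM ± 0.551 to 44.5 CPM ± 1.07 (n = 3 each, log2 2.14, SE 0.11, adjusted p = 2.31e-08), and the groups lay far apart.

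The 2 factors of vessel growth differed from each other in p53-WT cells. VEGFA was at 47.7 and 44.6 CPM in the DMSO libraries, 54.0 and 62.6 CPM with UCI-1001 and 116 and 102 CPM with UCI-1014. Every compound library was above both DMSO libraries, and both UCI-1014 libraries were above both UCI-1001 libraries. VEGFA rose 2.36-fold with UCI-1014 (log2 1.24, SE 0.08, adjusted p = 7.77e-09). With UCI-1001 it rose 1.26-fold (log2 0.34, SE 0.08, adjusted p = 0.0101), a call that was lost without DMSO replicate 2 (log2 0.29, adjusted p = 0.131), without UCI-1001 replicate 2 (log2 0.22, adjusted p = 0.125), in a fit over all 12 libraries (log2 0.31, adjusted p = 0.293) and with limma on TPM (log2 0.25, adjusted p = 0.470). In Saos-2 VEGFA was at 13.4, 12.9 and 14.6 CPM in p53-null and at 10.5, 11.8 and 9.38 CPM in p53-WT libraries, without overlap. It fell by 0.37 on the log2 scale (SE 0.13, adjusted p = 0.0260). That call was lost without p53-null replicate 2 (log2 -0.40, adjusted p = 0.0524), without p53-null replicate 3 (log2 -0.31, adjusted p = 0.103) and without p53-WT replicate 3 (log2 -0.29, adjusted p = 0.123), and with DESeq2 (log2 -0.35, adjusted p = 0.0539).

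THBS1 had the steepest response to the compounds among the 9 factors. It was at 0.928 and 1.52 CPM in the DMSO libraries, 5.40 and 5.18 CPM with UCI-1001 and 19.2 and 13.8 CPM with UCI-1014. These steps did not overlap. THBS1 rose 4.33-fold with UCI-1001 (log2 2.12, SE 0.29, adjusted p = 8.38e-05) and 13.4-fold with UCI-1014 (log2 3.75, SE 0.28, adjusted p = 6.45e-09). With limma on TPM the UCI-1001 call was lost at a log2 of 1.93 (adjusted p = 0.0929). In Saos-2, where its level was higher throughout, it was at 41.3, 49.6 and 54.0 CPM in p53-null and 76.6, 82.1 and 88.8 CPM in p53-WT libraries. It rose 1.71-fold there (log2 0.77, SE 0.12, adjusted p = 2.10e-04), with no overlap between the groups.

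Of the cytokines, GDF15 had the largest rise with p53-WT of the 9. It had 20, 14 and 17 counts in the p53-null libraries and 5593, 3898 and 4531 in the p53-WT libraries, which is 0.777 CPM ± 0.132 against 214 CPM ± 29.5 (n = 3 each). The log2 fold change was 8.09 (SE 0.21, adjusted p = 3.25e-10), a 273-fold rise. In TOV-112D GDF15 had 5 and 3 counts in the DMSO libraries, 12 and 10 after UCI-1001 and 32 and 27 after UCI-1014. Its log2 fold change was 2.92 with UCI-1014 (SE 0.57, adjusted p = 1.91e-04) and 1.35 with UCI-1001 (SE 0.61, adjusted p = 0.136). GDF15 was tested in TOV-112D only because compound-treated libraries passed the filter, so its call there had to favour a rise. The UCI-1001 libraries were above the DMSO libraries without passing the test, and the counting interval of their ratio of 2.60 ran from 1.11 to 6.75. Scaled over all 12 libraries, GDF15 was at 1.53 CPM with UCI-1014 and at 0.81 CPM in p53-null cells, without overlap.

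CSF1 rose with p53-WT and with UCI-1014. It was at 0.967, 1.04 and 1.23 CPM in the p53-null libraries and 23.3, 21.9 and 23.3 CPM in the p53-WT libraries, a 21.0-fold rise (log2 4.39, SE 0.17, adjusted p = 2.28e-09). In TOV-112D it was at 1.39 and 1.57 CPM with DMSO, 1.98 and 2.36 CPM with UCI-1001 and 3.05 and 3.53 CPM with UCI-1014. The 3 groups did not overlap. CSF1 rose 2.22-fold with UCI-1014 (log2 1.15, SE 0.27, adjusted p = 0.00273), a call that was lost with limma on TPM (log2 0.96, adjusted p = 0.144). With UCI-1001 its log2 fold change of 0.55 (95% confidence interval -0.05 to 1.16) had an adjusted p of 0.218.

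LIF was at 5.57, 7.39 and 6.49 CPM in the p53-null and 27.2, 24.8 and 23.9 CPM in the p53-WT libraries. It rose 3.90-fold (log2 1.96, SE 0.13, adjusted p = 2.66e-07), and the groups were well separated. In TOV-112D LIF was at 0.979 and 0.704 CPM with DMSO, 0.892 and 1.06 CPM with UCI-1001 and 2.81 and 2.76 CPM with UCI-1014. DMSO and UCI-1001 overlapped, and UCI-1014 stood above both. LIF rose 3.28-fold with UCI-1014 (log2 1.71, SE 0.33, adjusted p = 5.05e-04), a call that was lost with limma on TPM (log2 1.27, adjusted p = 0.194). With UCI-1001 the log2 value was 0.20 (95% confidence interval -0.59 to 1.00, adjusted p = 0.773).

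IGFBP3 and PLAU, which act outside the cell on growth factor availability and on plasminogen, passed the test with p53-WT and with neither compound. IGFBP3 was at 24.9, 21.6 and 24.3 CPM in p53-null and 101, 95.3 and 99.3 CPM in p53-WT libraries. It rose 4.18-fold (log2 2.06, SE 0.10, adjusted p = 2.82e-08). In TOV-112D all 6 libraries lay between 2.82 and 3.47 CPM, and UCI-1001 gave a log2 fold change of -0.13 (95% confidence interval -0.60 to 0.34, adjusted p = 0.754) and UCI-1014 one of -0.05 (-0.52 to 0.42, adjusted p = 0.869). PLAU was at 209, 191 and 205 CPM in p53-null and 365, 306 and 291 CPM in p53-WT libraries, a 1.59-fold rise (log2 0.67, SE 0.11, adjusted p = 3.11e-04). In TOV-112D it had 10 to 21 counts a library. Its log2 fold change was 0.07 with UCI-1001 (95% confidence interval -0.90 to 1.04) and 0.44 with UCI-1014 (-0.51 to 1.38), so changes of up to about these bounds were not detectable at this depth.

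UCI-1014, an analog of UCI-1001, was set beside it at the same 3 h. Both compounds are compared with the same DMSO libraries, so the direct contrast was used. Of the 9 factors, 5 were higher with UCI-1014 than with UCI-1001 and 0 lower, where 17.1% of genes were higher and 13.9% lower. Of the 7 factors above the filter in all 6 libraries, 4 were higher. The difference was 1.63 on the log2 scale for THBS1 (SE 0.18, adjusted p = 6.54e-06), 1.42 for HBEGF (SE 0.17, adjusted p = 2.12e-05) and 0.90 for VEGFA (SE 0.07, adjusted p = 5.21e-07). LIF differed by 1.51 (SE 0.32, adjusted p = 0.00205). With limma on TPM the calls of THBS1 (log2 1.28, adjusted p = 0.120) and LIF (log2 0.78, adjusted p = 0.482) were lost. GDF15 differed by 1.56 (SE 0.42, adjusted p = 0.00914), a call that was lost without UCI-1001 replicate 1 (log2 1.70, adjusted p = 0.0540), without UCI-1001 replicate 2 (log2 1.47, adjusted p = 0.0727) without UCI-1014 replicate 1 (log2 1.33, adjusted p = 0.105) or with limma on TPM (log2 0.97, adjusted p = 0.158). CSF1 and TGFA were higher in both UCI-1014 libraries than in both UCI-1001 libraries without passing the test, with log2 differences of 0.60 (95% confidence interval 0.05 to 1.15, adjusted p = 0.0891) and 1.38 (0.06 to 2.70, adjusted p = 0.0909). The intervals of IGFBP3 (-0.40 to 0.55) and PLAU (-0.56 to 1.29) included 0. As the doses are not known to match, a difference of compound and a difference of dose cannot be told apart. HSPA1A, an inducible heat shock gene named as a check, had 3827 to 4399 counts with DMSO, 130042 to 142176 with UCI-1001 and 420529 to 463519 with UCI-1014, so its level moved in the same order as these factors, and its part in the result was not tested.

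Whether a factor answered p53-WT and a compound by the same amount was asked in the fit over all 12 libraries, as the difference between the 2 fold changes. The difference is signed, so a value below 0 can also come with a fall in p53-WT cells, as for VEGFA. Against UCI-1001, 4 of the 9 factors passed the test with a difference above 0 and 3 with one below 0, where 25.1% and 24.5% of all genes did. Against UCI-1014, 3 passed with a difference above 0 and 3 with one below 0, where 27.1% and 25.9% of all genes did. GDF15 exceeded its UCI-1014 response by 5.25 on the log2 scale (SE 0.55, adjusted p = 4.67e-05), CSF1 by 3.31 (SE 0.25, adjusted p = 1.26e-07) and IGFBP3 by 2.18 (SE 0.18, adjusted p = 2.08e-07). THBS1 stood on the other side, with a difference of -2.90 (SE 0.31, adjusted p = 1.26e-06). HBEGF (-2.58, SE 0.23, adjusted p = 2.51e-07) and VEGFA (-1.54, SE 0.16, adjusted p = 1.82e-06) did so as well. The same 3 factors were on that side against UCI-1001, at -1.31 (THBS1), -1.19 (HBEGF) and -0.67 (VEGFA), with adjusted p of 0.00319, 7.42e-04 and 0.00283. LIF differed from its UCI-1001 response by 1.80 (SE 0.33, adjusted p = 4.69e-04), whereas its difference from UCI-1014 was 0.32 (95% confidence interval -0.31 to 0.95, adjusted p = 0.397). TGFA and PLAU passed this test against neither compound. For TGFA the difference from UCI-1014 was -0.06 and ran from -1.31 to 0.63 on leaving out 1 library, so it was not resolved at 5 counts with DMSO. Cell line, duration and agent cannot be told apart in these differences.

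**Figure D4:**
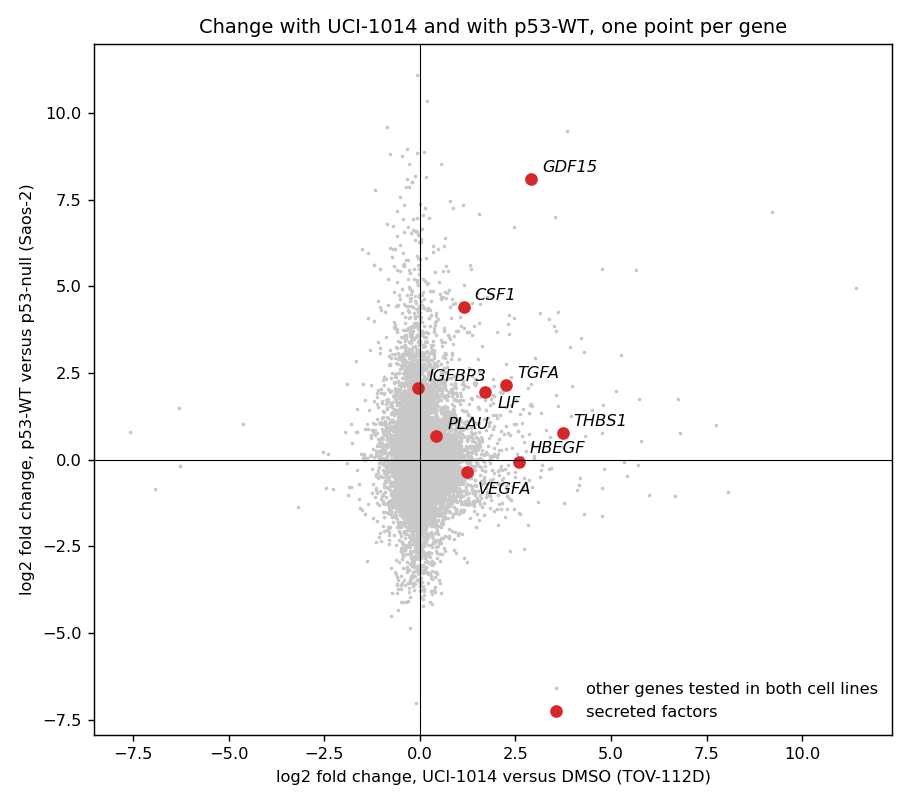
Log2 fold change with UCI-1014 in TOV-112D (horizontal) and with p53-WT in Saos-2 (vertical) for the 12939 genes tested in both lines, 1 point a gene, with the 9 factors in red. GDF15 lies high at 8.09 on the vertical axis, THBS1 and HBEGF lie to the right near the horizontal axis, and IGFBP3 lies on the vertical axis near 0 with UCI-1014.

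The transcripts that carried these genes were read from the deposited transcript estimates, which are uncertain where transcripts overlap. GDF15-201 held 97.2% ± 0.370 (SD, n = 3) of the GDF15 TPM in p53-WT cells, 79.7% ± 22.7 in p53-null cells and 14.1% ± 2.69 (n = 2) in DMSO cells, which had 3 to 5 counts of the gene. In UCI-1014 cells this share was 74.6% ± 8.02. HBEGF-201 held at least 96.2% of HBEGF in every library, and PLAU-201 held 83.2% ± 2.05 in p53-null and 88.0% ± 1.07 in p53-WT cells. VEGFA was spread over several transcripts. VEGFA-205 held 35.4% ± 0.094 in DMSO cells, 45.9% ± 3.94 after UCI-1001 and 45.7% ± 0.981 after UCI-1014, and VEGFA-206 led in p53-null cells with 44.5% ± 13.2.

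IGFBP3 differed between the lines in its transcripts. IGFBP3-202 (2322 bases) held 95.7% ± 4.91 of the gene's TPM in p53-null and 96.6% ± 1.47 in p53-WT cells and was at 0 TPM in all 6 TOV-112D libraries, where IGFBP3-209 and IGFBP3-201 held the signal. The flat IGFBP3 counts of TOV-112D also had a changing make-up. Transcripts found in the GENCODE 44 annotation accounted for 88.9% of its deposited gene counts in DMSO cells, 63.0% after UCI-1001 and 24.3% after UCI-1014, against 98.5% in p53-null and 89.7% in p53-WT cells. For the other 8 factors that share was at least 94.1% in every library. The TPM of the annotated IGFBP3 transcripts was lower as well, at 2.71 and 2.65 in the DMSO libraries, 1.32 and 1.56 after UCI-1001 and 0.423 and 0.643 after UCI-1014. On that TPM scale the log2 change with UCI-1014 was -2.16 (limma, adjusted p = 0.00586), against -0.05 in counts. So a change of IGFBP3 with UCI-1014 depended on which transcripts were counted, and the transcripts that hold the remaining counts were not named here.

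**Figure D5:**
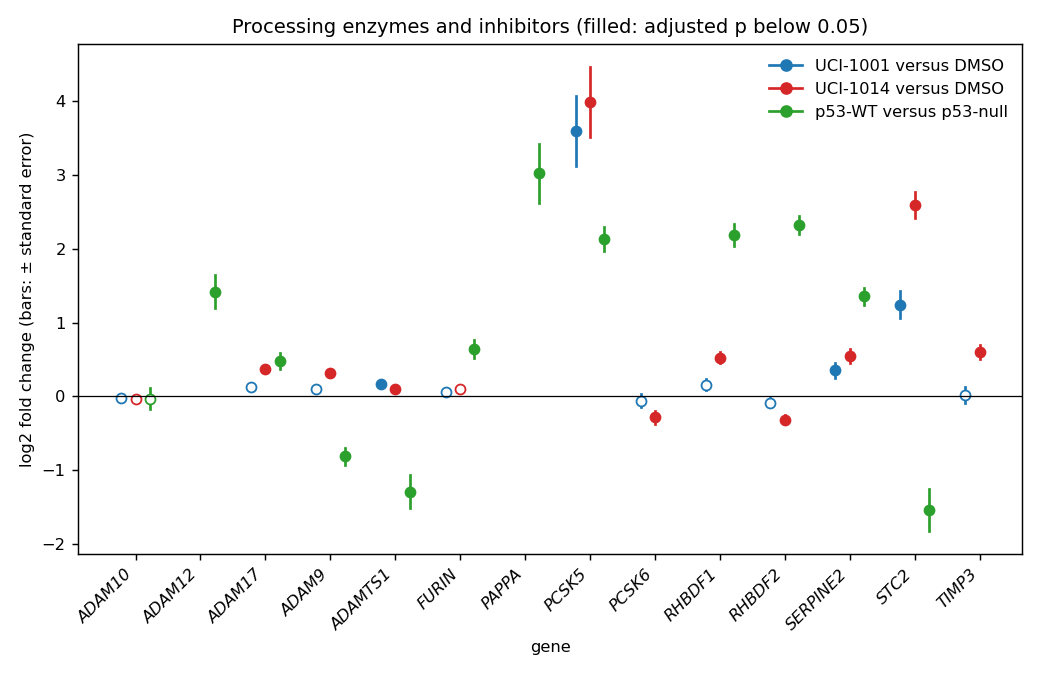
Log2 fold change of tested processing enzymes and inhibitors in 3 comparisons (1 gene of the list is not shown), with bars of 1 standard error and filled points where the adjusted p was below 0.05. PCSK5 is filled and above 0 in all 3 comparisons, while STC2 is above 0 with both compounds and below 0 with p53-WT.

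The proteins that shed, cleave or inhibit these factors were read as a list of 17 genes, of which 13 were tested in each line. With p53-WT 9 were higher and 3 lower, where 33.5% of all genes tested were higher and 33% lower. With UCI-1014 9 were higher and 2 lower (23.7% and 23.4% of all genes), and with UCI-1001 5 were higher and 0 lower (9.39% and 6.36% of all genes), with 7 at an unadjusted p below 0.05 in either direction. The list's median log2 fold change was 1.26, 0.37 and 0.13, beside -0.01, -0.02 and 0.00 for all genes. The list was chosen with earlier results of these data known, so these contrasts are not independent of them. With p53-WT the list held PAPPA, a protease of IGF-binding proteins (log2 3.02, SE 0.40, adjusted p = 1.63e-05), and the inactive rhomboids RHBDF2 (2.32, SE 0.12, adjusted p = 3.45e-08) and RHBDF1 (2.18, SE 0.15, adjusted p = 3.48e-07), which are known to bring the sheddase ADAM17 to the cell surface. PAPPA was at 0.199 CPM in p53-null cells, under the Saos-2 filter of 0.468 CPM. It was tested only through the p53-WT libraries, so its call had to favour a rise. PCSK5, a proprotein convertase, rose with UCI-1001 (log2 3.60, SE 0.47) and UCI-1014 (3.99, SE 0.47), from 0.738 CPM ± 0.049 with DMSO to 9.05 ± 2.08 and 11.97 ± 5.28 CPM. STC2, known as an inhibitor of PAPPA, rose with UCI-1001 (log2 1.24, SE 0.18) and UCI-1014 (2.59, SE 0.17).

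A list of 30 relatives of the 9 ligands had 18 genes tested in TOV-112D and 17 in Saos-2. With UCI-1001 2 were higher and 0 lower, also at an unadjusted p below 0.05 (9.39% and 6.36% of all genes). With UCI-1014 5 were higher and 5 lower (23.7% and 23.4% of all genes), and with p53-WT 5 higher and 4 lower (33.5% and 33%), so these shares of the list lay near those of all genes. PGF, the placental growth factor of the VEGF family, had the largest rise of the list in each of the 3 comparisons. It went from 0.976 CPM ± 0.078 with DMSO to 5.52 ± 1.65 with UCI-1001 (log2 2.49, SE 0.31, adjusted p = 2.66e-05) and 11.7 ± 1.75 CPM with UCI-1014 (3.57, SE 0.30, adjusted p = 3.25e-08), and from 2.95 ± 0.142 CPM in p53-null to 38.7 ± 6.37 CPM in p53-WT cells (3.71, SE 0.16, adjusted p = 6.72e-09). AREG, another EGF receptor ligand, rose with p53-WT from 0.460 ± 0.136 to 2.74 ± 0.393 CPM (2.56, SE 0.30, adjusted p = 1.24e-05). Its p53-null mean lay under the Saos-2 filter of 0.468 CPM. The test of AREG needed p53-WT libraries to pass that filter, so its call had to favour a rise.

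Of 21 receptors and binding partners, 16 were tested in TOV-112D and 15 in Saos-2. None passed edgeR's test with UCI-1001, where 15.7% of all genes did, and 3 had an unadjusted p below 0.05. With UCI-1014 2 were higher and 3 lower (23.7% and 23.4% of all genes), and with p53-WT 5 were higher and 4 lower (33.5% and 33%), so each share of the list was no larger than that of all genes. With UCI-1014 the higher genes were LIFR, the receptor of LIF (log2 0.67, adjusted p = 2.95e-05), and ERBB4 (0.65, adjusted p = 0.00400). The lower genes were EGFR (log2 -0.21, adjusted p = 0.0235), ERBB2 (-0.21, adjusted p = 0.00407) and NRP2 (-0.27, adjusted p = 0.00739). All of these were named after their values were seen. With p53-WT, IGF1R, the receptor of insulin-like growth factors, rose from 20.2 ± 4.38 to 117 ± 12.9 CPM (log2 2.54, SE 0.16, adjusted p = 1.60e-07), and CD36, a receptor of thrombospondin 1, from 0.414 ± 0.107 to 1.91 ± 0.309 CPM (2.20, SE 0.32). RET, the signalling receptor of GDF15, had 1 count in the 3 p53-null and 210 in the 3 p53-WT libraries, a ratio of 211 with a counting interval of 37.4 to 8365. GFRAL, the other receptor of GDF15 on the list, did not pass the filter in either line. In p53-null cells the means of RET and CD36 lay under the Saos-2 filter of 0.468 CPM. Their tests needed p53-WT libraries to pass that filter, so their calls had to favour a rise. The 4 lower receptors, named after their values were seen, included PLAUR, the receptor of PLAU, which fell from 146 ± 8.14 to 54.5 ± 5.40 CPM (log2 -1.42, SE 0.11, adjusted p = 7.17e-07). ERBB3, a receptor of the EGF receptor family (log2 -0.99, adjusted p = 0.00304), IL6ST, which signals for LIF (-0.56, adjusted p = 0.0147), and the tetraspanin CD9 (-0.39, adjusted p = 0.0316) were the others.

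To place each factor among other genes, the gene whose 3 log2 fold changes (UCI-1001, UCI-1014 and p53-WT) lay nearest was found among genes of at least 1 CPM in every group. GDF15 was nearest to CDKN1A, at a distance of 1.28 on the log2 scale, and CDKN1A itself changed by 1.65, 3.54 and 7.01. CSF1 was nearest to ABHD4 (distance 0.088) and TGFA to SIPA1L2 (0.331). On the compound side, THBS1 was nearest to DNAJB4, a heat shock co-chaperone gene (0.417), closely followed by the histone gene HIST2H4B (0.447). HBEGF was nearest to the histone gene HIST1H4H (0.052) and VEGFA to GCLC, the catalytic subunit of glutathione synthesis (0.057). LIF was nearest to KCTD11 (0.463), IGFBP3 to POMZP3 (0.064) and PLAU to KANSL1 (0.015). These distances describe likeness over 3 fold changes, of which both compound values share the DMSO libraries.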

How the data were processed

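RNA was extracted by kit from TOV-112D and Saos-2 cells and sequenced by a commercial provider. The authors quantified reads with kallisto 0.48.0 against GRCh38, summed estimated counts of transcripts by Ensembl gene and converted the sums to integer counts, which are the deposited gene counts. The annotation release was not given in the sources used here. The deposited transcript files hold estimated counts and TPM per transcript. Here, rows of a symbol were summed. edgeR 4.0.16 (TMM scaling, filterByExpr, quasi-likelihood F test, Benjamini-Hochberg adjustment over all genes tested) was fitted once per cell line and once over all 12 libraries, with a call at an adjusted p below 0.05. Standard errors and 95% intervals come from the information matrix of the fit and its quasi-likelihood dispersion. CPM were computed on TMM-scaled library sizes per cell line. Gene TPM were summed over the 165858 of 187626 transcripts found in GENCODE 44, which hold 92.1% to 95.0% of TPM. GENCODE gene coordinates are GRCh38. Counting intervals are exact binomial intervals at 95% and cover counting error only. Alternatives were DESeq2 1.42.0, limma 3.58.1 on log2(TPM + 0.1), RLE factors, no filter, rows by identifier, a replicate block and leaving out each library. Scripts were tested on simulated counts. The members and lists were chosen with earlier results of these data known. All 9 members and the check genes were named, except for some genes that are not reported here, with at most 8 list genes per comparison that had an adjusted p below 0.05, a log2 fold change above 1 in size and a mean of at least 1 CPM in 1 group.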

Additional observations from a re-analysis of the deposited data

How the results depend on the processing

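Counts of genes called with UCI-1001 moved with the test, and 2232 genes became 1284 with DESeq2, 388 with limma on TPM, 308 in 1 fit over all 12 libraries and 952 to 2538 on leaving out 1 library. The 6677 genes called with UCI-1014 became 4172 with TPM and 3421 in the fit over all 12 libraries (5060 to 6635 on leaving out 1 library). The 4406 genes called between the compounds became 2891, 1847 and 937 with DESeq2, TPM and the fit over all 12 libraries. The share of UCI-1001 calls that were higher was 59.6% and became 83.0% with TPM and 83.1% in the fit over all 12 libraries. Between the compounds it was 55.2%, and 47.3% with TPM and 70.1% in the fit over all 12 libraries. With p53-WT it was 50.4%, and 38.0% with TPM. Of the factors, 0 in place of 3 were called with UCI-1001 on TPM, and between the compounds 2 in place of 5 on TPM and 3 with DESeq2, which gave no adjusted p for GDF15 and LIF. The cause was not tested. On leaving out 1 library, 2 to 3 factors were called with UCI-1001, 6 to 7 with UCI-1014, 4 to 5 between the compounds and 7 to 8 with p53-WT. With CPM in place of TPM, 4 (DMSO), 2 (UCI-1001), 3 (UCI-1014), 4 (p53-null) and 5 (p53-WT) of the 9 factors kept their rank.

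Signs turned only for values that missed the threshold. On leaving out 1 library, the log2 fold change with UCI-1001 ran from -0.26 to 0.48 for PLAU and from -0.0085 to 0.46 for LIF, that of IGFBP3 with UCI-1014 from -0.16 to 0.068, and the difference of p53-WT and UCI-1014 from -1.31 to 0.63 for TGFA and from -0.11 to 0.63 for PLAU. The turned values came without DMSO replicate 1 or 2 and, for IGFBP3 at 0.000188, without UCI-1014 replicate 1. IGFBP3 between the compounds was -1.30 on TPM. TGFA with UCI-1014 had an adjusted p of 0.0888 with DESeq2. On TPM, the calls of THBS1, VEGFA and HBEGF with UCI-1001, of CSF1 and LIF with UCI-1014 and of GDF15, THBS1 and LIF between the compounds were lost, and GDF15 with UCI-1014 was 1.75. Over the alternatives that gave a value and an adjusted p, 868 of 899 values of single factors kept their direction and side of the threshold. Some of these fits left out a library of a group outside the comparison. The share therefore says little about calls near the threshold. Cases without an adjusted p, such as GDF15 and LIF between the compounds with DESeq2, are not among the 899.

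Replicate numbers were not used to pair the samples in the main fits. Correlations of same-numbered deviations were 0.063 (DMSO and UCI-1001), -0.030 (DMSO and UCI-1014), -0.164 (UCI-1001 and UCI-1014) and 0.075 to 0.139 (Saos-2). With so few libraries a group, these values cannot decide whether the samples were paired. With the replicate block 1774, 6307, 3882 and 9814 genes were called with UCI-1001, with UCI-1014, between the compounds and with p53-WT, and the block changed no count of factors called. Crossing the UCI-1014 numbers, added after seeing the data, gave 4979 genes and 5 factors between the compounds. Depth limits GDF15, TGFA and PLAU in TOV-112D.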
